A study of Arabidopsis thaliana with 6 samples.

Results

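COR47 and DI21 are Arabidopsis thaliana genes named for their response to cold and drought, and they are the only members described here, 2 of 13350 genes named through the probe table of the Affymetrix ATH1 array. The pair was chosen by these same measured signals, which differed in opposite directions between atyak1 mutant and wild-type floral buds, so the mutant against wild-type values are given as a description, with no test. COR47 (locus AT1G20440, probe set 259570_at) and DI21 (locus AT4G15910, probe set 245523_at) have 1 probe set each. The study measured RNA on 6 arrays, 2 biological replicates each of the mutant lines atyak1-2 and atyak1-1 and of the wild type, all in the Col-0 ecotype. AtYAK1 is a DYRK-type protein kinase, and the study concerns its part in making pollen, the male gametophyte. Each sample was a mixture of floral buds up to stage 13 from the primary inflorescence of 42-day-old plants under day and night periods of equal length, with no drought or cold treatment named. The mutants are 2 different alleles of AtYAK1, and the lesion in each and its effect on the transcript were not analysed here, as the probe table lists 0 probe sets for AtYAK1.

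Late embryogenesis abundant (LEA) proteins are mostly hydrophilic, flexible proteins that plants accumulate when cells lose water, in maturing seeds and pollen and in tissue under drought, cold or salt. COR47, also called RD17, is an acidic dehydrin, a LEA class that binds membranes and other proteins in drying cells, and its gene responds to cold, drought and abscisic acid. DI21, drought-induced 21, belongs to the small LEA_3 family, whose best known Arabidopsis relative is SAG21. Abscisic acid acts through soluble receptors, PP2C phosphatases, SnRK2 kinases and ABF transcription factors, and the CBF/DREB factors act on many of the same genes in the cold.

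COR47 was lower in every mutant array than in either wild-type array. Its MAS5 signal, a probe set brightness on a linear scale, was 3377 and 2428 in atyak1-2 (replicates 1 and 2), 3659 and 1871 in atyak1-1, and 5778 and 4996 in the wild type. The groups did not overlap, and the dimmer wild-type array was 1.37 times as bright as the brightest mutant array. The replicate 2 arrays of both alleles were the lowest of all. The mean signal was 2903 ± 672 in atyak1-2, 2765.0 ± 1265 in atyak1-1 and 5387 ± 553 in the wild type (SD, n = 2 each). In order of level the wild type stood highest, and atyak1-2 and atyak1-1 followed with means that differed by less than the SD of either allele. The log2 fold change from a limma fit to all 6 arrays was -0.97 ± 0.27 (SE) for the average of the alleles minus the wild type, or 0.51 times the wild-type level. It was -0.91 for atyak1-2 and -1.04 for atyak1-1.

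DI21 was higher in every mutant array than in either wild-type array. Its signal was 2089 and 2047 in atyak1-2, 2095 and 1732 in atyak1-1, and 1033 and 1060.3 in the wild type. The groups did not overlap, and the dimmest mutant array, atyak1-1 replicate 2, was 1.63 times as bright as the brighter wild-type array. The mean signal was 2068 ± 29.8 in atyak1-2, 1913 ± 257 in atyak1-1 and 1047 ± 19.5 in the wild type (SD, n = 2 each). In order of level atyak1-2 stood highest, then atyak1-1, whose mean differed from that of atyak1-2 by less than its own SD, and then the wild type. The log2 fold change was 0.92 ± 0.12 (SE) for both alleles minus the wild type, or 1.90 times the wild-type level, with 0.98 for atyak1-2 and 0.86 for atyak1-1. Over all 15164 probe sets tested, 11.1% had all mutant arrays below the wild-type pair, as COR47 did, and 21.3% had all of them above it, as DI21 did. The median log2 fold change of all probe sets tested was 0.09, so relative to it COR47 was slightly lower and DI21 slightly less high than their own values say.

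**Figure D1:**
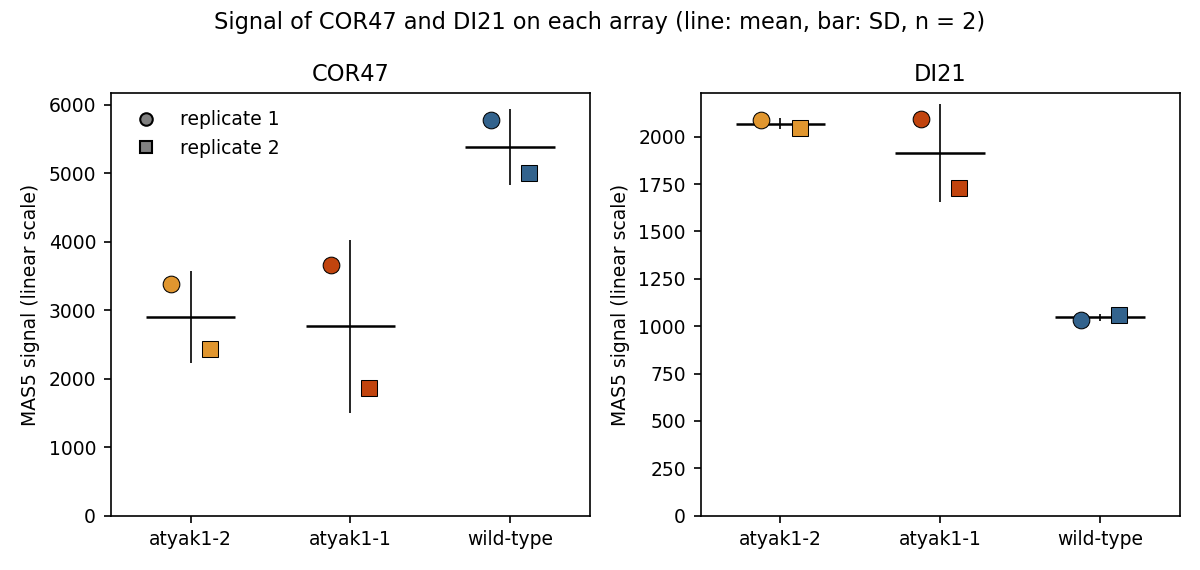
MAS5 signal on a linear scale (vertical axis) of COR47 and DI21 in atyak1-2, atyak1-1 and wild-type floral buds; points are single arrays, horizontal lines are means and vertical bars are SD (n = 2). COR47 lies between 1871 and 3659 on the mutant arrays and at 4996 and 5778 in the wild type, and DI21 lies between 1732 and 2095 on the mutant arrays and at 1033 and 1060.3 in the wild type.

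The size of each change placed both genes toward the ends of the range, which their choice on this same contrast favours. Of the 15164 probe sets tested, 3.40% had a lower log2 fold change than COR47 and 0.758% had a higher one than DI21. The spread between replicates was unlike for the pair. COR47 had a residual SD of 0.45 on the log2 scale, and 90.8% of the probe sets tested had a smaller one. DI21 had 0.11, and 21.5% had a smaller one, against a median of 0.19 for all probe sets tested.

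The replicates of COR47 differed in the same direction in all 3 genotypes. Replicate 2 was below replicate 1 by 28.1% in atyak1-2, 48.9% in atyak1-1 and 13.5% in the wild type. Of the probe sets tested, 20.8% were likewise lower in replicate 2 in every genotype. DI21 had replicate 2 minus replicate 1 differences of -0.03 in atyak1-2, -0.27 in atyak1-1 and 0.04 in the wild type on the log2 scale. Arrays of the same replicate number tended to deviate in the same direction, so both changes were also read within each replicate. For COR47 the mutant mean minus the wild type was -0.72 in replicate 1 and -1.23 in replicate 2 on the log2 scale. For DI21 the same difference was 1.02 in replicate 1 and 0.83 in replicate 2. COR47 was thus farther from the wild type in replicate 2 and DI21 farther in replicate 1. In a fit with a replicate block, the SE of the log2 fold change was 0.15 for COR47 in place of 0.27, and 0.11 for DI21 in place of 0.12.

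The difference between the alleles asks whether either gene depends on which mutant line was measured, and the choice of the genes did not use it. For COR47, atyak1-2 had signals of 3377 and 2428, against 3659 and 1871 in atyak1-1, and the arrays of the alleles overlapped. The log2 difference, atyak1-2 minus atyak1-1, was 0.13 ± 0.32 (SE), a ratio of 1.09 with a 95% interval from 0.65 to 1.84 (limma, adjusted p = 1.0 over all probe sets tested). For DI21 atyak1-2 had 2089 and 2047, against 2095 and 1732 in atyak1-1, and these arrays overlapped too. The log2 difference was 0.12 ± 0.14, a ratio of 1.09 with a 95% interval from 0.862 to 1.37 (limma, adjusted p = 1.0). Neither gene differed between the alleles beyond the spread between replicates, and the intervals leave room for a difference of up to 1.84 times in COR47 and 1.37 times in DI21. The sign of the COR47 difference turned to -0.35 without atyak1-1 replicate 2 and to -0.11 without atyak1-2 replicate 1, and that of DI21 to -0.02 without atyak1-1 replicate 2. In this comparison limma called 0 of 15164 probe sets, or 0.0%, with 151 at an unadjusted p under 0.05, and 2 with the replicate block.

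Relatives of COR47 among the dehydrins gave 3 further tested genes of the 10 in the family, since 6 had a named probe set, COR47 included, and 2 of these were under the signal filter. None of the 3 passed in limma for both alleles minus the wild type, where 1.93% of all probe sets tested passed, and 1 had an unadjusted p under 0.05, against 17% of all probe sets tested. That one was LEA (AT2G21490), with signals of 140.4 and 50.7 in atyak1-2, 301.0 and 55.1 in atyak1-1, and 538.5 and 737 in the wild type. All mutant arrays of LEA were below both wild-type arrays, as for COR47, with the lowest signals on the replicate 2 mutant arrays. Its log2 fold change was -2.60 ± 0.69 (limma adjusted p = 0.14, and 0.015 with the replicate block). AT1G54410, a small dehydrin also called HIRD11, had between 10962 and 11388 on the mutant arrays and 11113 and 11168 in the wild type, with overlapping groups and a log2 fold change of 0.00 ± 0.08. LTI30, a dehydrin that binds membranes in the cold, had a log2 fold change of 0.26 ± 0.26, and its arrays overlapped as well. LEA kept its lower mean with each array left out, whereas LTI30 had -0.15 without wild-type replicate 1 and AT1G54410 turned sign with median centring.

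The LEA_3 family of DI21 could be followed no further. Of its 4 members only DI21 and AT3G53770 had a named probe set, and AT3G53770 was under the filter, with between 3.89 and 16.6 on the mutant arrays and 13.5 and 3.89 in the wild type. Among 25 other LEA genes with a named probe set, 11 were tested. None passed in limma, against 1.93% of all probe sets tested, and 4 had an unadjusted p under 0.05, against 17%. Those nearest to DI21 in direction were AT2G23120, a small LEA gene, with a log2 fold change of 0.49 ± 0.12 (adjusted p = 0.11, and 0.025 with the replicate block), and DI19, a drought-induced zinc-finger protein from the list of drought and cold targets, with 0.41 ± 0.11 (adjusted p = 0.14, and 0.0504 with the block). In both genes the mutant arrays all lay above the wild-type pair. AT2G23120 had 9306 and 9304 in atyak1-2, 8522 and 9037 in atyak1-1, and 5712 and 7252 in the wild type. DI19 had 9425 and 9559 in atyak1-2, 8590 and 8039 in atyak1-1, and 6043 and 7368 in the wild type.

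Of the 11 other LEA genes tested, those lower in the mutants with an unadjusted limma p under 0.05 were AT3G02480, AT4G13230 and AT2G46140. In all of them, unlike in COR47, wild-type replicate 2 was brighter than replicate 1. AT3G02480 had 450.6 and 223 in atyak1-2, 1146 and 140.0 in atyak1-1, and 2055 and 3881 in the wild type, a log2 fold change of -2.99 ± 0.79 (limma adjusted p = 0.13, and 0.024 with the replicate block). AT4G13230 had 423 and 192 in atyak1-2, 513 and 166 in atyak1-1, and 1210.4 and 2284 in the wild type, a log2 fold change of -2.53 ± 0.53 (adjusted p = 0.073, and 0.011 with the block). In these genes, as in COR47, all mutant arrays lay below both wild-type arrays and those of replicate 2 were lowest. AT2G46140, of the LEA_2 class, had 403 and 387 in atyak1-2, 554 and 407 in atyak1-1, and 746.5 and 967 in the wild type, a log2 fold change of -0.97 ± 0.18, the same size as that of COR47 (adjusted p = 0.052, and 0.012 with the block). Its adjusted p was between 0.030 and 0.045 with array weights, log2(signal + 32), median centring, quantile normalization, no filter or a 2-group fit. It did not pass without the variance trend (0.077), under a stricter filter (0.069), or with any array but atyak1-1 replicate 1 left out (0.057 to 0.40). In AT4G36600 too the mutant arrays all lay below the wild-type pair, with -0.59 ± 0.28.

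COR15A and COR15B, whose proteins protect chloroplast membranes in the cold and whose genes answer to the same CBF factors as COR47, had log2 fold changes of -0.15 ± 0.16 and -0.02 ± 0.28. COR15A had between 10483 and 13687 on the mutant arrays and 11650.1 and 15961 in the wild type. COR15B had between 3028 and 5200.3 on the mutant arrays and 3549 and 4563 in the wild type. The groups overlapped in both genes, unlike in COR47, and a test of the difference between genes was not made. LEA18, AT2G03850, AT2G03740 and AT2G44060 completed the tested LEA genes, with log2 fold changes of -0.35, 0.15, 0.01 and 0.04 and overlapping groups.

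Over all the lists, 15 genes other than COR47 and DI21 were tested. In limma 0 passed, against 1.93% of all probe sets tested, and 6 had an unadjusted p under 0.05, against 17%. The median log2 fold change of the 15 was -0.02, against 0.09 for all probe sets tested, with 6 means higher and 9 lower in the mutants. LEA18, among the 9, was dim, with 58.4 to 83.6 on the mutant arrays around the filter limit of 73.6. With all mutant arrays above both wild-type arrays there were 2 of the 15, or 13.3%, against 21.3% of all probe sets tested. With all mutant arrays below there were 5 of the 15, or 33.3%, against 11.1%. With the replicate block 5 of the 15 passed, against 7.59% of all probe sets tested, and 4 passed when atyak1-1 replicate 1 was left out, against 3.89%. With any of the other 5 arrays left out, 0 or 1 passed. In each allele alone limma passed 0 of the 15, with 6 at an unadjusted p under 0.05. Of all probe sets tested, 0.963% passed and 12.3% had such a p in atyak1-2, and 1.06% passed and 14.1% had such a p in atyak1-1. The lists of abscisic acid receptors (14 genes), PP2C phosphatases (9), SnRK2 kinases (10), and ABF and CBF/DREB factors (12) had 0 named probe sets, so the signalling steps before COR47 and DI21 were not analysed here. Of the 24 drought and cold target genes listed, only 1, DI19, had a named probe set. The 15 genes tested were thus 14 LEA genes and DI19. The probe table lists no gene for 8794 of the 22810 probe sets on the array. A gene without a named probe set may thus still be measured on it, and the genes tested are only part of each list. A further 17 LEA genes were under the filter, and in a fit without it, where 1.96% of all probe sets passed, 1 of them did, AT5G27980, a seed maturation protein chosen after its value was seen, with between 11.5 and 45.9 on the mutant arrays and 345 and 339 in the wild type (log2 fold change -3.70 ± 0.42, limma adjusted p = 0.010). As its mutant signals are dim, the size of that change is uncertain.

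**Figure D2:**
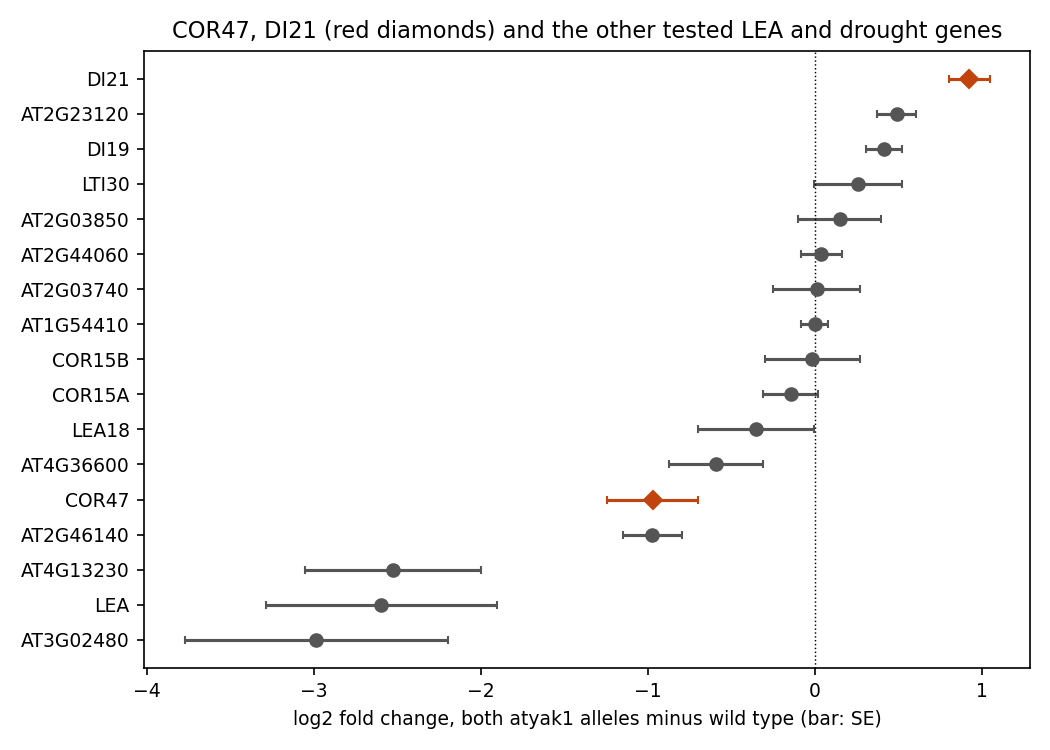
Log2 fold change of both atyak1 alleles minus the wild type (horizontal axis, bars are SE from the limma fit) for COR47 and DI21 (red diamonds) and the 15 other tested LEA and drought genes (grey circles). DI21 at 0.92 is above all others drawn, COR47 at -0.97 lies beside AT2G46140, and AT4G13230, LEA and AT3G02480 lie lower, at -2.53, -2.60 and -2.99.

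Late pollen markers were lower in the mutants, and their summed signal fell by more than that of COR47. The marker lists were chosen with earlier results of these data known, so this fall is given as a description. COR47 was chosen for its change in the mutants, so the direction it shares with the markers was set by that choice. The summed signal of the 10 late pollen markers with a named probe set, of 18 in the list, was 557 and 464 in atyak1-2, 791 and 398 in atyak1-1, and 4609 and 5919 in the wild type. No marker was listed at 0, and the dimmest on the mutant arrays was ANX1, at 2.77 to 16.2, against 80.8 and 89.3 in the wild type. In both alleles the summed signal was lower in replicate 2, as the COR47 signal was. Within the wild type, where COR47 was brighter in replicate 1, 4 of the 10 markers were brighter in replicate 1 and 6 in replicate 2. AtVEX1 alone made most of the difference between the wild-type sums, which were 3189 and 3306 without it. Both named tapetum markers, of 8 in the list, summed to 3044 and 3846 in atyak1-2, 3040.3 and 4749.6 in atyak1-1, and 2319 and 4413 in the wild type, with overlapping groups. INO, the only named marker of the 5 for ovule and carpel, had 125 and 115 in atyak1-2, 130 and 71.0 in atyak1-1, and 97.9 and 182 in the wild type. The list of floral organ identity genes had 0 named probe sets. The part of these cell types in the levels of COR47, DI21 and the lower LEA genes was not tested, and in whole buds fewer cells of a type and less RNA per cell cannot be told apart.

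Of the genes next to the pair, the 2 with a named probe set did not pass the test. AT1G20430, beside COR47, had between 1052 and 1206 on the mutant arrays and 995 and 958 in the wild type, a log2 fold change of 0.20 ± 0.12 (limma adjusted p = 0.42), with all mutant arrays above the wild-type pair. SWEET17, a fructose transporter gene beside DI21, had between 1244 and 1753 on the mutant arrays and 1568 and 1452 in the wild type, a log2 fold change of -0.05 ± 0.16 (limma adjusted p = 0.90), and its groups overlapped. The neighbours on the other side, the dehydrin gene ERD10 by COR47 and PRL1 by DI21, had no named probe set.

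Other genes followed each pattern across the 6 arrays, read as Pearson's r of log2 signal among 8305 other named probe sets tested. These values describe 6 points that share arrays and scaling, and many probe sets scored high, with 303 above an r of 0.9 for COR47 and 365 for DI21. Most like COR47 was AT5G02580 (r = 0.999), with 73.0 and 37.7 in atyak1-2, 89.8 and 19.5 in atyak1-1, and 285 and 207 in the wild type. Next came AT3G14560, AT1G12080, AT1G78460 and AT3G26110, with r from 0.993 to 0.995. All 5 were lower in the mutants by more than COR47, with log2 fold changes from -6.19 for AT3G26110 to -1.33 for AT1G12080. The sizes for AT3G26110, with 3.31 to 151 on the mutant arrays, and AT5G02580 are uncertain, as their mutant signals are dim. All 5 had, like COR47, a lower replicate 2 array in each genotype, which their choice by r with COR47 favours.

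Most like DI21 was AT5G54090 (r = 0.995), with 149.6 and 145 in atyak1-2, 152 and 141 in atyak1-1, and 108 and 110.0 in the wild type. It was followed by AT1G03210, AT5G27730, AT1G02060 and AT5G04050, with r from 0.988 to 0.994. The log2 fold changes of these 5 ran from 0.43 for AT5G54090 to 0.84 for AT1G02060, each smaller than that of DI21. The size for AT1G02060 is uncertain, as its wild-type signals, 50.4 and 49.3, are dim. In all 5, as in DI21, atyak1-1 replicate 2 was the lowest of the mutant arrays, which their choice by r with DI21 favours.

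**Figure D3:**
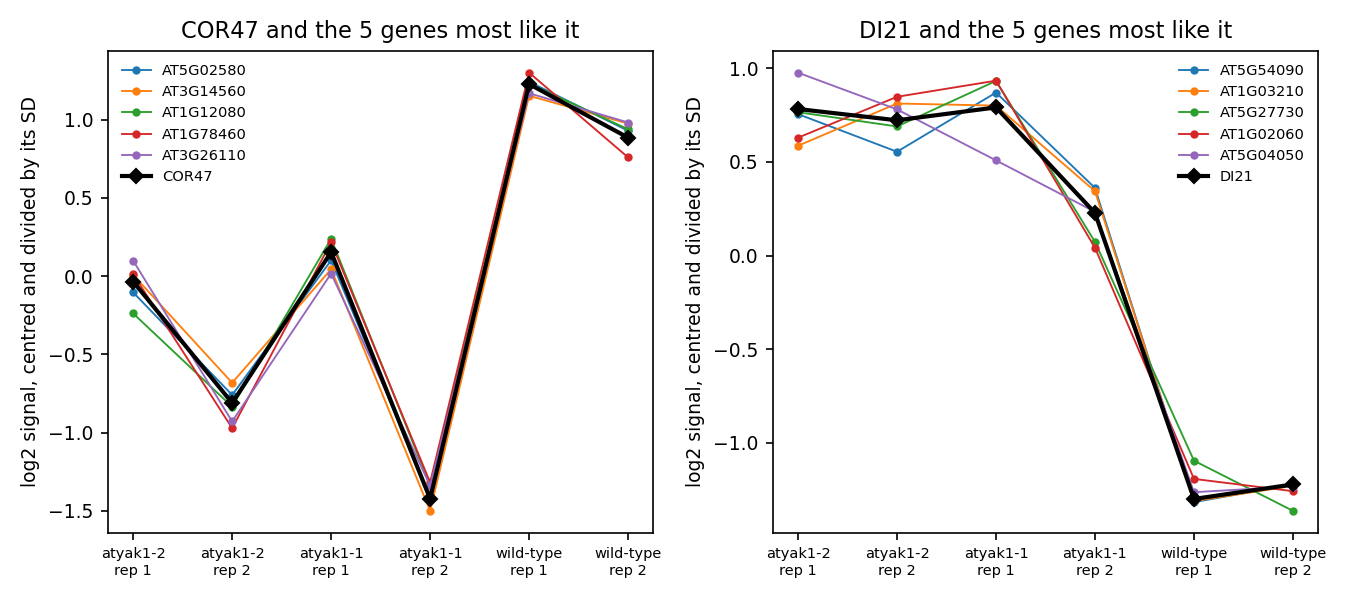
Log2 signal of COR47 (left) and DI21 (right) with the 5 named genes most like each, centred on its mean and divided by its SD over the 6 arrays (vertical axis), in atyak1-2, atyak1-1 and wild-type replicates (horizontal axis). The COR47 group is lowest on atyak1-1 replicate 2 and highest on wild-type replicate 1, and the DI21 group is high on all mutant arrays and low on both wild-type arrays.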

How the data were processed

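RNA of mixed floral buds was hybridised to 6 ATH1 arrays, grouped by genotype from their titles. The values deposited by the authors are MAS5 signals, an intensity on a linear scale, made with GCOS and MAS5 per the submitters' processing notes, which give no version or order of steps. The mean signal after trimming each end was 500.04 on every array, which shows a common scaling, and medians ran from 213 to 223. Signals were taken to log2 with no pseudocount, 64 control probe sets and the dimmest of the rest by mean log2 signal (a share of 0.333) were left out, and 15164 probe sets were tested, the dimmest at a geometric mean of 73.6. limma 3.58.1 in R 4.3.3 fitted 1 mean per genotype to all 6 arrays with a variance trend, with Benjamini-Hochberg adjustment over all of these and a threshold of 0.05. The number of arrays limits the precision. Each p-value sets a difference against the spread between these samples, which limma moderates with that of the other probe sets tested.

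Gene names come from the platform's probe table, where 13513 probe sets have 1 gene and 503 have several and were not named, and 13436 matched a TAIR10.1 record. A further 8794 probe sets have no gene listed. No coordinates are given, as the files name no build. The members and gene lists were chosen with earlier results of these data known. Genes named were COR47 and DI21, the tested LEA genes, up to 4 per other list by smallest p, the neighbours in locus order, and the 5 most alike by Pearson's r. A probe set with the highest mean signal stands for its gene.

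Deviations from the genotype means correlated at 0.35 for atyak1-2 with the wild type, 0.25 for atyak1-1 with the wild type and 0.61 between the alleles, so the replicate numbers of the titles were taken to pair the samples. The evidence is weak with 2 replicates, and the main model has no block. Alternatives were a block, filters, log2(signal + 32), quantile normalization, median centring, no variance trend, array weights, a 2-group fit for the mutants and a fit to only the alleles for their difference, and each array left out. In simulated data on 15164 probe sets, the comparison of both alleles with the wild type recovered 62% of 50 probe sets changed by 1 log2 unit, and the allele difference 52%. Among the probe sets left unchanged there were 12 and 14 false calls. The simulated errors were independent between arrays, with no replicate effect, so these values may not hold for the real arrays. Plots were drawn with matplotlib 3.10.9.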

Additional observations from a re-analysis of the deposited data

How the results depend on the processing

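The log2 fold changes of COR47 and DI21 for both alleles minus the wild type kept their sign and stayed within 1 SD under all 15 alternatives. They ran from -1.22 to -0.73 for COR47 and from 0.85 to 0.99 for DI21 with each array left out. The allele difference, atyak1-2 minus atyak1-1, ran from -0.35 to 0.61 for COR47 and from -0.0189 to 0.26 for DI21 with each array left out, and did not pass under any of the 15. The replicate block changed no call of COR47 or DI21 in the allele difference, with log2 values of 0.13 and 0.12. Over all probe sets the count called for both alleles minus the wild type, 292 as reported, was 445 without the filter, 113 under the stricter filter, 556 in the 2-group fit and 1151 with the replicate block, and ran from 7 to 590 with each array left out. The allele difference gave 2 with the block and 0 to 6 with each array left out, where 6 came without atyak1-1 replicate 1. Of the other drought and LEA genes, 0 as reported, 1 passed with array weights, log2(signal + 32), median centring or quantile normalization, 2 without the filter or in the 2-group fit, 5 with the replicate block, and 0 to 4 with each array left out. Over all probe sets tested the count called was 399 with array weights, 355 with log2(signal + 32), 335 with median centring and 332 with quantile normalization. The count of 2 without the filter was over 32 genes rather than 15, and included AT5G27980, whose mutant signals are dim. AT2G46140 had -0.97 with array weights and in the 2-group fit. Signs of small changes turned for AT1G54410 with median centring (0.0013) and for COR15B with quantile normalization (0.0098). With each array left out the range crossed 0 for AT1G54410 (-0.0154 to 0.0121), LTI30 (-0.15 to 0.67), COR15A (-0.37 to 0.0806), COR15B (-0.21 to 0.18), AT2G44060 (-0.0334 to 0.11), AT2G03850 (-0.10 to 0.39), AT2G03740 (-0.37 to 0.39) and LEA18 (-0.82 to 0.11). Causes were not tested.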
